A study of Bos indicus with 9 samples.

Results

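The expected chromatin neighborhood of SOX10 on cattle chromosome 5 was described from ATAC-seq of hypothalamus, skeletal muscle, and liver. ATAC-seq finds open chromatin by letting a transposase cut DNA where nucleosomes leave it free. The libraries came from 3 unrelated post-pubertal Brahman heifers (*Bos indicus*), numbered 2047, 2054, and 2057, each of which gave 1 library per tissue, so that 9 libraries fell into 3 groups of 3. The heifers were of similar age and weight and gave bulk frozen tissue, and the paper describes no treatment of them. The neighborhood was taken as every peak overlapping chr5:109400000-110300000 (ARS-UCD1.2), a window of 900 kb selected on the hypothalamus list, which holds a peak of 13017 bp there. It held 180 of the 140923 deposited peaks, of which 111 of 78528 were in hypothalamus, 50 of 40104 in muscle, and 19 of 22291 in liver. Since the window was chosen by the length and position of hypothalamus peaks, these values and their AUCs are given as a description with no test.

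SOX10 is a transcription factor of the SoxE group, which binds DNA through an HMG box. In the brain it marks the oligodendrocyte lineage, the glial cells that wrap axons in myelin, and it is needed for these cells to mature and to switch on myelin genes. Outside the brain it is best known from the neural crest, where Schwann cells and melanocytes depend on it. Neither skeletal muscle fibers nor hepatocytes are known as sites of SOX10 expression, although nerves running through muscle carry Schwann cells.

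The values of each peak are those of the consensus of 3 heifers. The area under the curve (AUC) sums the combined −log10 p above the calling threshold over the length of a peak, and the summit −log10 p is its highest point, not corrected for multiple tests. Neither was scaled between tissues, so tissues were compared only by the percent of their own list that lies below a peak, and where summits of several tissues stand together they are the values of each list and not a comparison. The lists carry no read counts and no value for a single heifer. The depth behind a peak is therefore unknown, no spread between heifers can be given, and no difference between tissues was tested. In bulk tissue, more cells with an open site and a site more open in each cell cannot be told apart.

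No gene positions on ARS-UCD1.2 were used for SOX10 itself, and no peak is assigned to it here. In the part of the authors' annotation used here, 2 liver peaks of the window carry a gene symbol, both as promoter peaks. The first, at chr5:109460600-109461300, belongs to GGA1, an adaptor of vesicle transport from the Golgi, and the second, at chr5:109517534-109517785, to NOL12, a nucleolar protein. The next named liver peak to the right, at chr5:110373119-110373460, lies in an intron of SUN2, a nuclear envelope protein, outside the window. In the gene order of another *B. indicus* assembly, 28 protein-coding genes stand between NOL12 and SUN2, and SOX10 is the 11th of them after NOL12. Its direct neighbors there are POLR2F, an RNA polymerase subunit, and PICK1, a scaffold protein of synaptic receptor trafficking. Farther to the NOL12 side stand MICALL1, GALR3, which encodes a galanin receptor, GCAT, and TRIOBP, an actin-binding protein. Farther to the SUN2 side stand SLC16A8, a monocarboxylate transporter, BAIAP2L2, PLA2G6, a phospholipase, MAFF, CSNK1E, a casein kinase, and KCNJ4, a potassium channel. Whether the order is the same in the build of the peaks was not tested. Since SUN2 lies outside the window, the order alone does not place SOX10 inside it. The name SOX10 window is thus that of an expected place.

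Hypothalamus peaks covered 180940 bases of the window (20.1%), muscle peaks 37652 bases (4.18%), and liver peaks 9930 bases (1.10%). The window was rich in peaks in all 3 lists. Over 2903 windows of the same width tiled along chromosomes 1 to 29 and X, the median was 19 hypothalamus peaks covering 13821 bases, and 8 windows held at least 111 peaks. Only 1 of them, at the start of chromosome 25, had as many bases in hypothalamus peaks as the SOX10 window. The tiles were not kept clear of the SOX10 window, and 1 of the 8, chr5:108900001-109800000 with 113 peaks, overlaps it. The median was 6 peaks and 3209 bases in muscle, and 2 peaks and 975 bases in liver. At least 50 muscle peaks, as in the SOX10 window, were held by 73 windows, and at least 19 liver peaks by 109. By number of peaks, the SOX10 window stood at 5.84 times the hypothalamus median, 8.33 times the muscle median, and 9.5 times the liver median. By covered bases it stood at 13.1, 11.7, and 10.2 times. The number of peaks rests in part on the length of the lists. When each list was kept to its strongest peaks, as many as the liver list holds, 45 peaks were left in hypothalamus and 28 in muscle beside the 19 in liver.

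**Figure D1:**
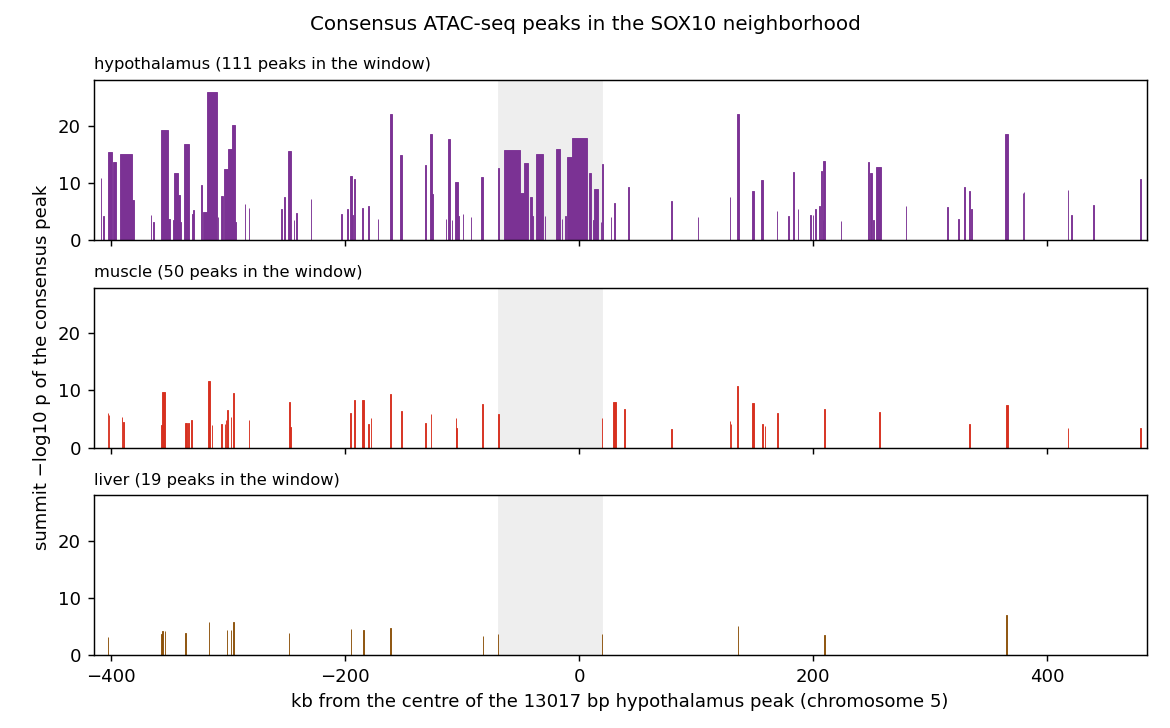
Consensus peaks of hypothalamus, muscle, and liver over the 900 kb window. The x axis is the distance in kb from the centre of the 13017 bp hypothalamus peak, each bar spans 1 peak, its height is the summit −log10 p, and grey marks the stretch of 88010 bases with no muscle or liver peak. By the definition of the grey stretch, the 50 muscle and 19 liver peaks all lie outside it.

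Hypothalamus peaks of the window were long, while their AUC per bp was that of the list. The 111 hypothalamus peaks had a median length of 869 bp against 543 bp in the whole list, a median AUC of 1406 against 842, and a median summit −log10 p of 7.51 against 5.99. Their median AUC per bp was 1.76, beside 1.78 in the list. Of the 111 peaks, 9 were in the top 1% of the list by length (0.935% of hypothalamus peaks on the chromosomes were), and 27 were in the top 10% (10.4%). By summit, 18 were in the top 10% (10.4%). In muscle, the median length was 603 bp against 482 bp in the list, and the median summit −log10 p of 5.28 was close to the 5.35 of the list. In liver, the median length of 426 bp was close to the 431 bp of the list, and the median summit −log10 p was 4.25 against 5.07. The median percent of the list below, by summit, was 64.5% for the hypothalamus peaks, 48.6% for the muscle peaks, and 27.8% for the liver peaks of the window. The lists differ in their share on chromosomes 1 to 29 and X. It was 71028 of 78528 peaks in hypothalamus, 30483 of 40104 in muscle, and 12063 of 22291 in liver. Ranked against those peaks alone, the medians were 64.3%, 52.5%, and 38.6%.

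Most hypothalamus peaks of the window overlapped no peak of the other lists, whereas nearly all muscle and liver peaks were shared. The contrast depends on the length of the lists. With lists of equal length, 23 of 45 hypothalamus, 5 of 28 muscle, and 0 of 19 liver peaks were unshared. In the full hypothalamus list, 74 of 111 peaks (66.7%, Wilson 95% interval 57.5% to 74.7%) overlapped no muscle or liver peak. The same held for 67.9% of the whole hypothalamus list and for 74.8% of its peaks on chromosomes 1 to 29 and X, so this share is no higher in the window than elsewhere. In muscle, 4 of 50 peaks (8%, interval 3.15% to 18.8%) had no overlap in another tissue, beside 28.5% of the list and 36% on the chromosomes. In liver, 0 of 19 had none (upper bound 16.8%), beside 9.93% of the list and 7.78% on the chromosomes. These intervals cover counting error only. Of the 50 muscle peaks, 46 overlapped a hypothalamus peak and 18 a liver peak as well (36%, beside 30.4% of muscle peaks on the chromosomes that overlapped both). All 19 liver peaks overlapped a muscle peak, and 18 of them (94.7%, beside 79.3% on the chromosomes) a hypothalamus peak as well. How many muscle peaks of the list overlap hypothalamus, and how many liver peaks overlap muscle, was not counted. Both other tissues were met by 16 hypothalamus peaks (14.4%, beside 12.9%). No hypothalamus peak was shared with liver alone, a class that holds 0.893% of the hypothalamus peaks on the chromosomes. How strict the overlap is decides the count for muscle and liver. When an overlap had to take at least 50% of both peaks, 26 muscle and 9 liver peaks counted as unshared. Shares of the whole lists under that rule were not counted, so these counts cannot be set beside the lists. With the window 100 kb wider on each side, 15 of 74 muscle peaks were unshared.

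Shared hypothalamus peaks were longer and taller than unshared ones, in the window and across the list. Median length in the window was 616.5 bp for the 74 unshared peaks, 1005 bp for the 21 shared with muscle alone, and 1918 bp for the 16 shared with both tissues, with median summits of 5.36, 8.51, and 15.7. Across the chromosomes the same classes had median lengths of 475, 934, and 1717 bp and median summits of 5.35, 8.34, and 15.6. The 2 longest peaks of the window, however, were among the unshared ones.

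The 13017 bp peak spans chr5:109808618-109821634, with an AUC of 35194 and a summit −log10 p of 17.8 at position 109816619. It was not the broadest peak of the window. A peak of 13355 bp lies 44161 bases to its left, at chr5:109751102-109764456, with an AUC of 32257 and a summit −log10 p of 15.7 at position 109755407. Over all 78528 hypothalamus peaks, the 13355 bp peak was 23rd by length, 148th by AUC, and 6557th by summit, and the 13017 bp peak was 28th, 117th, and 3837th. On chromosome 5 they were the 2 longest of 3421 peaks. Their AUC per bp, 2.42 for the longer and 2.70 for the shorter, lay above 66.7% and 72.2% of the list, whereas their whole AUC lay above 99.8% and 99.9%.

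Neither of the 2 broad peaks shared a base with a muscle or liver peak. The closest muscle peak was 4798 bases to the left of the 13355 bp peak and 12679 bases to the right of the 13017 bp peak, and the closest liver peaks were 5077 and 12711 bases away on the same sides. On chromosomes 1 to 29 and X, 21 hypothalamus peaks were at least 13017 bp long. Of these, 11 overlapped peaks of both other tissues, 7 overlapped peaks of muscle or of liver only, and 3 overlapped none. The 3 were the pair of the window and a peak of 21652 bp at chr19:51556113-51577764, with an AUC of 71043 and a summit −log10 p of 23.9. Among the 53103 unshared hypothalamus peaks on the chromosomes, whose median length was 475 bp, the pair was 2nd and 3rd by length. The next in length, at chr24:2320835-2331557, had 10723 bp. By summit, the 13017 bp peak was 478th and the 13355 bp peak 1122nd of the same peaks.

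The 3 longest hypothalamus peaks on the chromosomes had 39453 bp (chr7:81582-121034), 31448 bp (chr21:32905567-32937014), and 25014 bp (chr23:649-25662), and all 3 overlapped peaks of muscle and liver. Their AUCs were 303737, 107895, and 212209. The 13355 bp peak had the lowest AUC of the 21 peaks of at least 13017 bp.

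**Figure D2:**
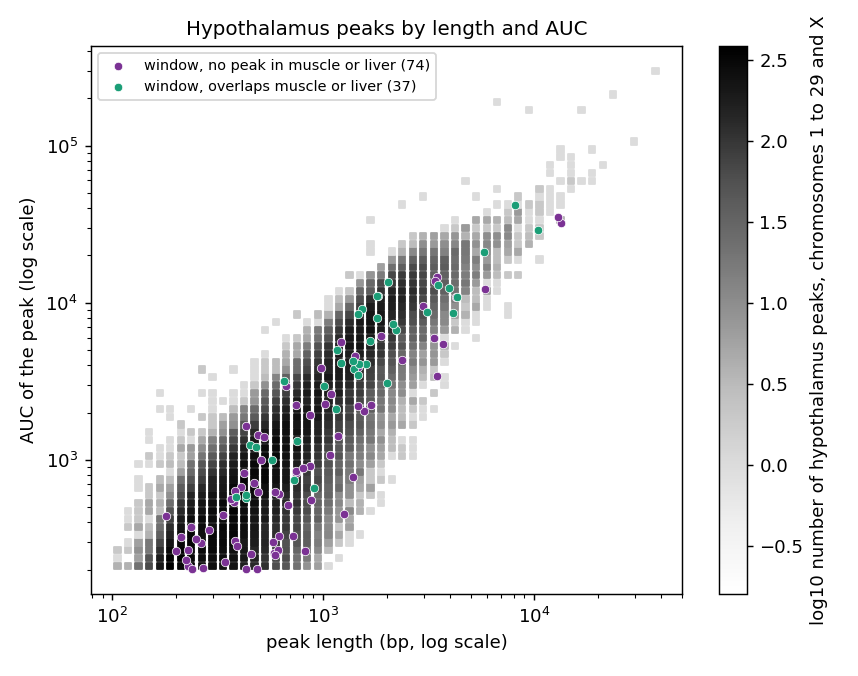
Length of hypothalamus peaks in bp against AUC, both on log scales. Grey squares are all 71028 peaks on chromosomes 1 to 29 and X, darker where more peaks fall, purple points are the 74 peaks of the window with no muscle or liver peak, and green points are the 37 that overlap a peak of either tissue. The 2 purple points farthest to the right are the peaks of 13017 and 13355 bp.

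Both broad peaks lay in a stretch of 88010 bases, chr5:109746304-109834313, in which neither muscle nor liver had a peak. The stretch held 16 hypothalamus peaks, which took 57728 bases or 65.6% of it, and with 9.78% of the width of the window it held 31.9% of its hypothalamus peak bases. The 2 broad peaks together took 26372 bases. Peak lengths in the stretch ran from 378 to 13355 bp with a median of 2612.5 bp, and 8 peaks were over 3 kb. Summits were less far apart from the rest of the list. They ran from 3.17 to 17.8, and the median peak stood above 70.8% of the list by summit, beside 94.6% by length.

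Peaks stood close together in parts of the stretch. Of its 15 gaps between hypothalamus peaks, 6 were under 500 bases, with a median of 1343 and a longest of 9102 bases. In the whole window 24 of 110 gaps were under 500 bases (median 2749.5), and on the chromosomes 10.8% were (median 9587). To the right of the 13355 bp peak, each less than 500 bases from the one before, came a peak of 3354 bp (AUC 6004, summit −log10 p 8.25) and a peak of 3464 bp (AUC 14490, summit 13.5). The 3 took 20173 of 20588 bases from 109751102 to 109771689. Likewise, the 13017 bp peak was preceded by peaks of 872 bp (summit 4.12) and 4282 bp (AUC 10818, summit 14.5), and the 3 took 18171 of 18401 bases from 109803234 to 109821634. Between the 2 groups stood peaks of 5849 bp at 109778445-109784293 (AUC 12219, summit 15.0) and of 3391 bp at 109795117-109798507 (AUC 13837, summit 15.9). Of the other 8 peaks of the stretch, the longest had 3679 bp (109827651-109831329, AUC 5450, summit 8.83). The lowest, of 591 bp at 109833268-109833858, had a summit −log10 p of 3.17 and stood above only 0.337% of the list.

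**Figure D3:**
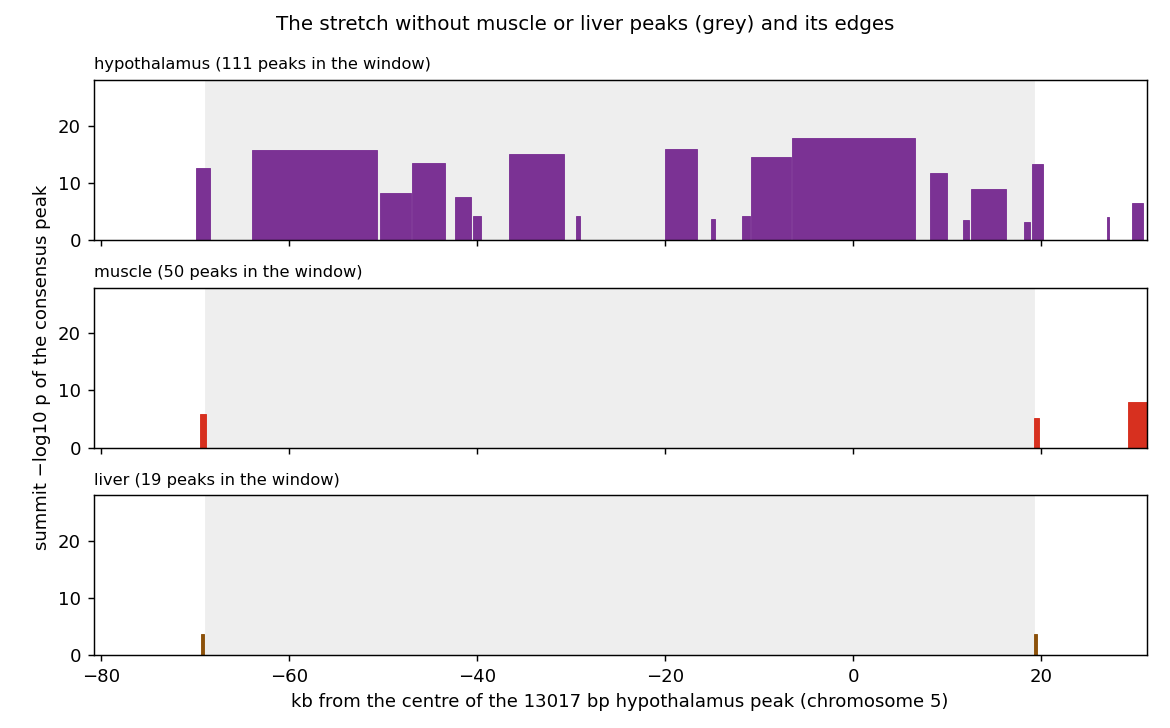
Consensus peaks in and around the stretch with no muscle or liver peak (grey), by tissue. The x axis is the distance in kb from the centre of the 13017 bp peak, and bars span peaks with the summit −log10 p as height. The 16 hypothalamus peaks inside fill 65.6% of the stretch. It ends by definition at a muscle or liver peak, and a peak of all 3 tissues stands at each end.

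By its definition, the stretch ends at a muscle or liver peak on each side. Here a muscle peak stood at each end, in a region open in all 3 tissues. Overlap with both other tissues was found for 18 of the 50 muscle peaks of the window. On the left, the hypothalamus peak 109745242-109746644 stood above 84.9% of its list by summit, the muscle peak it overlaps above 59.6%, and the liver peak above 10.3%. On the right, the hypothalamus peak 109834110-109835275 stood above 86.5%, with 48.4% for muscle and 8.95% for liver. In hypothalamus the end peaks had 1403 and 1166 bp, under the median of 2612.5 bp of the 16 peaks between them, of which 6 were under 1 kb.

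Muscle and liver peaks divide the chromosomes into 31886 such stretches. By bases in hypothalamus peaks and by summed AUC (141457), the stretch with the broad pair was first among them, and by number of peaks it was 390th. The place by bases depends on how the stretches are bounded and measured. It was 2nd when peaks with summits under 5 were dropped from every list or when muscle peaks alone were the bounds, 20th when liver peaks alone were the bounds, and 400th when 200 bp around each summit stood in for the whole peak. Stretches of a like width held little hypothalamus signal. Over 4998 stretches of 50 to 150 kb, the median was 920 bases in 2 peaks, 1038 held no hypothalamus peak, and the next after it had 46732 bases. Of the 540 stretches with at least 10 kb of hypothalamus peaks, 13 were covered to 50% or more, and only that with the broad pair among them was at least 50 kb wide.

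Other genes of the oligodendrocyte lineage and the SOX family offered a comparison. Of the genes listed for this purpose, OLIG1, CLDN11, and SOX2 were named for hypothalamus peaks in the part of the authors' annotation used here, and GPR17 for 1 muscle and 1 liver peak, both shared. The genes named for hypothalamus all lie on chromosome 1. The comparison is thus limited to the genes that this part covers, and listed genes not named in it may still have peaks. OLIG1, a transcription factor of oligodendrocytes, was the nearest gene of 25 hypothalamus peaks, all of them without overlap in muscle or liver, beside 74.8% of the hypothalamus peaks on the chromosomes. These lay in a stretch of 435.9 kb, chr1:2350252-2786123, where 37 hypothalamus peaks took 34180 bases (7.84%), the 27th place by bases. SOX2, a factor of neural progenitors, was the nearest gene of 63 hypothalamus peaks, all unshared (beside the same 74.8%). They lay in a stretch of 1650 kb, chr1:84385189-86035148, where 72 peaks took 46943 bases (2.85%), the 4th place. The longest peak named for OLIG1 had 4153 bp and the longest for SOX2 had 3002 bp. CLDN11, a tight junction protein of myelin, was the nearest gene of 7 hypothalamus peaks, all unshared (beside 74.8%), with lengths of up to 3059 bp. None of the skeletal muscle or hepatocyte markers listed was named in that part of the annotation, so the muscle and liver labels were not checked through markers. OLIG1 was the only cell type marker listed that was named, and it was named for hypothalamus peaks.

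**Figure D4:**
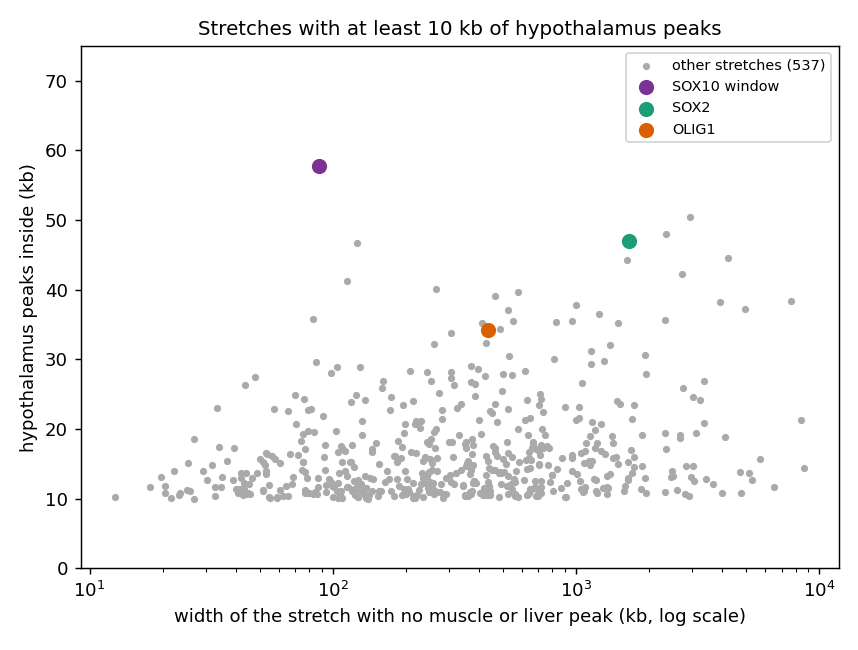
Width in kb (log scale) of stretches with no muscle or liver peak against kb of hypothalamus peaks inside them, for the 540 stretches with at least 10 kb. Colored points mark the stretches of the SOX10 window, SOX2, and OLIG1, and grey points are the other 537. The stretch of the SOX10 window, at 57.7 kb of peaks in 88.0 kb, is the highest point.

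The rest of the window differed on the 2 sides of the stretch. To its left, from 109400000 to 109746303, hypothalamus had 56 peaks covering 25.6% of the bases, muscle 33 covering 7.04%, and liver 15 covering 2.36%. To its right, up to 110300000, there were 39, 17, and 4 peaks, which covered 7.30%, 2.85%, and 0.375%. The left side also held the tallest hypothalamus peak of the window, 109497181-109505286, of 8106 bp, with an AUC of 41876 and a summit −log10 p of 26.0. It overlapped muscle and liver peaks and lay above 99.8% of the list by summit. Next to the broad pair, the AUC was highest for the hypothalamus peaks 109422634-109433056 (10423 bp, AUC 29182, summit 15.1), shared with muscle alone, and 109457656-109463444 (5789 bp, AUC 21155, summit 19.3), shared with both and holding the GGA1 promoter peak of liver.

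In muscle, the 5 peaks with the highest AUC were all shared with hypothalamus. The first, 109844317-109846907, had 2591 bp and an AUC of 4094, stood above 81.4% of the muscle list by summit, and lies to the right of the stretch. Then came 109458523-109461413 (AUC 4034, summit 9.70), 109498182-109499342 (AUC 3771, summit 11.7), 109962998-109964487 (AUC 3670, summit 7.77), and 109518825-109520055 (AUC 3561, summit 9.57). The 4 muscle peaks with no overlap in another tissue were lower than these 5, which were picked for their AUC. The median muscle peak of the window had an AUC of 775 and a summit of 5.28. The AUCs of the 4 were 1531 at 109853424-109854404, 579 at 109637048-109637362, 488 at 109944519-109945030, and 384 at 109973711-109974172, with summits from 3.85 to 6.83.

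In liver, the highest AUC was 1613 at 110180136-110180826, with a summit −log10 p of 7.01. It was followed by 109498252-109498882 (AUC 1292, summit 5.87), 109518840-109519685 (AUC 1199, summit 5.86), 109653515-109654275 (AUC 937, summit 4.70), and 109458634-109459715 (AUC 770, summit 4.25). Each of the 5 overlapped a peak of both other tissues. Without peaks of a summit under 5, 4 liver peaks remained in the window.

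The window held 18 regions open in all 3 tissues, of which 14 lay left of the stretch, and 4 right of it. None could lie in it, since it was defined by the absence of muscle and liver peaks. Without peaks of a summit under 5, 4 such regions were left. They were from 252 to 1082 bp long, and several shared a peak, so that they came from 16 hypothalamus, 17 muscle, and 18 liver peaks. In 18 of 18 the hypothalamus peak stood highest in its own list, and in 17 of 18 the liver peak stood lowest in its own list. The median percent of the list below was 92.7% for hypothalamus, 73.6% for muscle, and 27.0% for liver. The exception was 110180136-110180826, at 96.1% for hypothalamus, 77.0% for muscle, and 78.1% for liver, where the 3 summits fell within 1 base of each other. The order is not particular to the window. Among overlapping pairs on the chromosomes, hypothalamus stood above muscle in 81.8% and above liver in 90.3%, and muscle above liver in 85.9%. Counts over the 9803 regions open in all 3 tissues on the chromosomes were not made. Summits of the 3 tissues lay within 100 bases of each other in 12 of the 18 regions, with a median spread of 59 bases.

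By the lowest of the 3 summits, which was that of liver in every region, so that the order is one within the liver list, that region was followed by 109498252-109498882 (26.0 in hypothalamus, 11.7 in muscle, and 5.87 in liver) and 109518840-109519685 (20.2, 9.57, and 5.86). Then came 109950421-109950855 (22.1, 10.7, and 5.09), 109653515-109654275 (22.1, 9.31, and 4.70), and 109619703-109620034 (11.2, 6.13, and 4.68). The NOL12 promoter peak 109517534-109517785 (15.9, 5.36, and 4.38) was 7th and 109513996-109514400 (12.5, 6.49, and 4.33) 8th. The 9th and 10th, 109458634-109459715 and the GGA1 promoter peak 109460600-109461300, shared 1 hypothalamus and 1 muscle peak, with summits of 19.3 and 9.70, and had liver summits of 4.25 and 4.20.

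**Figure D5:**
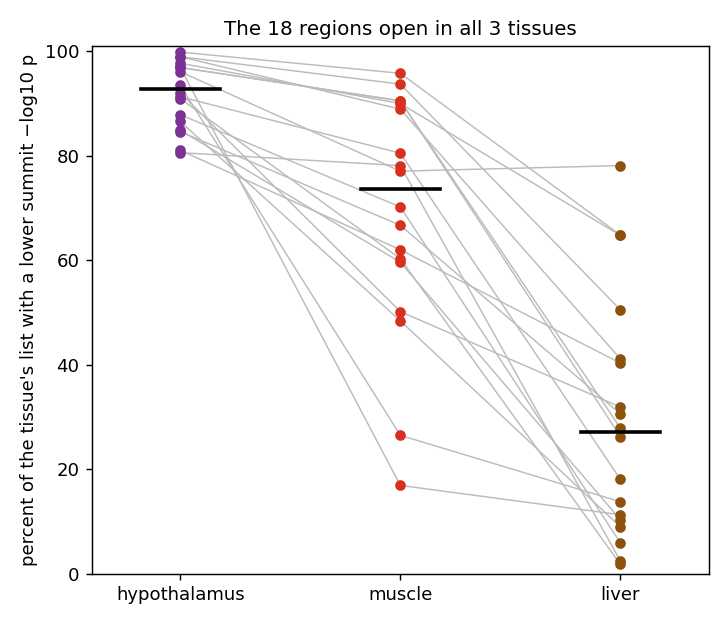
The 18 regions open in all 3 tissues, each as 3 points joined by a line. The y axis is the percent of the peaks of a tissue with a lower summit −log10 p, and black bars are medians, at 92.7% for hypothalamus, 73.6% for muscle, and 27.0% for liver.

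Pairs of peaks that overlapped 1 to 1 gave the same order. In 29 pairs of hypothalamus and muscle, the hypothalamus peak stood higher in its list by summit in 23 (79.3%), with a median difference of 22.9 percentage points, beside 15.2 points over 15371 pairs on the chromosomes. In 15 pairs of hypothalamus and liver, it stood higher in 15, with a median difference of 60.1 points, beside 42.4 points over 8894 pairs. Muscle stood higher than liver in 16 of 17 pairs, by a median of 39.4 points, beside 24.5 points over 9429 pairs. Ranked only against peaks on chromosomes 1 to 29 and X, the median differences in the window were smaller. They were 18.6, 48.1, and 32.3 points. The direction was thus that of the chromosomes as a whole. There the hypothalamus peak stood above muscle in 81.8% of pairs and above liver in 90.3%, and muscle above liver in 85.9%.

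At the ends of the window, the signal did not stop. The first hypothalamus peak inside on the left, 109405968-109406711, had a summit −log10 p of 10.8 and the last outside it, 109397337-109398011, had 8.25. On the right, the last inside, 110294096-110295483, had a summit of 10.6 and the first outside, 110313698-110314629, had 11.1.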

How the data were processed

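Peaks in 3 lists were analyzed, 1 per tissue, each a consensus of 3 heifers. The authors mapped reads with HISAT2 to ARS-UCD1.2, keeping up to 10 places per read. Genrich 0.6.1 then called peaks at a p of 0.01, without PCR duplicates or the mitochondrial sequence, and joined the p-values of the heifers by Fisher's method. The signal the authors deposited is the AUC of the combined −log10 p, with a lowest value of 200 in each list, and the deposited −log10 p is that of the summit. The deposited score column, which the authors' caller made from the mean AUC per base, was not used. Multiple alignments can add signal in repeated sequence.

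Starts were counted from 1. Overlaps of at least 1 base were computed with python 3.11.15, numpy 2.4.6, and pandas 2.3.3, checked against bedtools 2.31.1, and tested on simulated data. Shares have Wilson 95% intervals (scipy 1.17.1), and plots used matplotlib 3.10.9. Peaks named are the broad hypothalamus peaks, the 5 of highest AUC per tissue, unshared muscle and liver peaks, and the 10 regions open in all tissues with the highest lowest summit. The window, peaks, and gene lists were chosen with earlier results of these data known. The peaks described within the stretch, the tallest peak, and the longest peaks elsewhere were chosen after their values were seen. Gene names for peaks come from the authors' annotation, joined by coordinates. Gene order comes from RefSeq (NIAB-ARS_B.indTharparkar_mat_pri_1.0), with no coordinates used. Alternatives were stricter, equally long, or joined lists, other windows, overlaps, and backgrounds.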

Additional observations from a re-analysis of the deposited data

How the results depend on the processing

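No paired analysis was possible because each list is a consensus without values by heifer, and for the same reason leaving out each replicate was not run. A search for SOX motifs was not run either, since no promoter or genome sequence of the build was used. Of 185 alternative values for 42 results, 137 stayed within the limit set for their kind, 48 moved past it, and 0 reversed. The limit was a factor of 1.5 for counts and bases, which allows sizable moves, and the 95% interval of the main value for percents and medians, which is narrow for a percent of a long list. The cause of the moves was not tested. The alternatives for the stretch without muscle or liver peaks were chosen after seeing the data.

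With only summits of at least 5, muscle had 28 peaks (2 unshared), liver 4 covering 2603 bases, and 4 regions were open in all 3 tissues. The 13355 bp peak then stood above 99.95% of the list by length, 99.71% by AUC, and 87.0% by summit, the 13017 bp peak above 99.94%, 99.77%, and 92.4%, and the window above 98.1% of tiled windows by muscle peaks, 88.3% by liver peaks, and 88.9% by liver bases. With lists of equal length, hypothalamus had 45 peaks (23 unshared) and muscle 28. With the window 100 kb wider on each side, muscle peaks covered 57439 bases and 15 were unshared, and with it 100 kb narrower, liver peaks covered 6108 bases. With at least 50% of both peaks overlapping, 26 muscle and 9 liver peaks were unshared, with no list share counted under that rule. With 200 bp around each summit, covered bases were 21916 in hypothalamus, 9851 in muscle, 3738 in liver, and 3165 in the stretch. With peaks less than 500 bp apart joined, the 13355 bp peak grew to 20173 bases and stood above 99.88% by AUC. By AUC per bp, the pair stood above 66.7% and 72.2% of the list.

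Against chromosomes 1 to 29 and X, the 13355 bp peak stood above 99.88% by AUC and 91.4% by summit, and the 13017 bp peak above 99.92% by AUC. Against chromosome 5, the longer stood above 99.88% by AUC and 90.6% by summit, and the other above 99.94% by length, 99.91% by AUC, and 94.2% by summit. Among tiled windows of chromosome 5, the window stood above 99.2% by hypothalamus peaks, 100% by hypothalamus bases, 98.5% by muscle peaks, 94.7% by liver peaks, and 94.0% by liver bases. The tile of chromosome 5 with more hypothalamus peaks, 108900001-109800000, overlaps the window itself. The place of the stretch by bases was 2 with summits of at least 5 and with muscle bounds alone, 20 with liver bounds alone, 400 around summits, and 390 by number of peaks.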

Other observations

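Outside the SOX10 window, the stretches without muscle or liver peaks that held the most hypothalamus peak bases were mostly far wider. The second, at chr8:107058230-110001910, had 71 peaks with 50393 bases in 2944 kb, and the third, at chr18:19210059-21555090, had 58 peaks with 48049 bases in 2345 kb. Among the first 10, the narrow ones besides that of the SOX10 window were chr24:2277014-2402552, with 17 peaks covering 37.2% of 125.5 kb, and chr26:50903045-51017026, with 20 peaks covering 36.1% of 114.0 kb. The stretch on chromosome 24 also held the unshared peaks of 10723 and 8759 bp.

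Counted the other way, the stretch without hypothalamus or liver peaks that held the most muscle bases was chr2:18233116-18414574, with 45 peaks and 48414 bases in 181.5 kb. For liver it was chr17:2829119-2911737, with 8 peaks and 6780 bases.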
